A study of Mus musculus with 4 samples.

Results

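Metallothioneins and zinc transporters were followed as 9 genes of the 27998 in the count matrices: the metallothioneins Mt1, Mt2 and Mt3, the importers Slc39a4, Slc39a5 and Slc39a14, and the exporters Slc30a1, Slc30a2 and Slc30a4. They were chosen by symbol, and all 9 were read in all 4 libraries, by genotype and by cell class. Metallothioneins are small cysteine-rich proteins that bind zinc and copper, and their genes are switched on by the zinc-sensing factor MTF-1. Proteins of the SLC39 (ZIP) family carry zinc into the cytosol, and those of the SLC30 (ZnT) family carry it out of the cytosol, into vesicles or out of the cell. In the small intestine, enterocytes take zinc up from the gut lumen, and Paneth cells at the crypt base store zinc in the granules that also hold their alpha-defensins. Transcripts were measured in single cells from small intestinal crypts of mice aged 8 weeks, sorted as live cells that carried the epithelial marker EpCAM and lacked the leukocyte marker CD45. Of the 4 libraries, 2 were labelled slc7a5 fl/fl, in which the floxed alleles of the amino acid transporter gene Slc7a5 are intact, and 2 were labelled slc7a5 IEC-KO, in which villin-Cre deletes the floxed exon throughout the intestinal epithelium. Both genotypes thus carry the floxed alleles, and no library of mice with Cre alone was analysed here. The protocol given with the samples names 4 mice without saying how they were divided among the libraries. The p-values thus measure the spread between libraries, which may be technical.

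The genes of the metallothioneins lie together on chromosome 8 (GRCm38). Mt1 spans 94179082 to 94180327, Mt2 spans 94172664 to 94173568 and Mt3 spans 94152607 to 94154146, all on the plus strand, with 5513 bp between Mt2 and Mt1 and 18517 bp between Mt3 and Mt2. Slc7a5 is on the same chromosome at 121881150 to 121907694. The exporters lie on chromosome 1 (Slc30a1, 191906767 to 191913247, plus strand), chromosome 4 (Slc30a2, 134343181 to 134354484, plus strand) and chromosome 2 (Slc30a4, 122681233 to 122702663, minus strand). The importers lie on chromosome 15 (Slc39a4, 76612383 to 76617384), chromosome 10 (Slc39a5, 128395931 to 128401229) and chromosome 14 (Slc39a14, 70303469 to 70351425), all on the minus strand. The promoters of Mt1, Mt2, Mt3 and of Slc30a1, the exporter of the plasma membrane and a known MTF-1 target, are shown. They were picked because Mt1 and Mt2 moved with genotype in every class tested while the other members mostly did not. Each line gives RefSeq sequence (GRCm38.p6) from 250 bases before to 30 bases after the annotated start, and capitals mark the core of the metal response element, TGCACNC or TGCGCNC on either strand.
Mt1, chr8:94178839-94179118, plus strand: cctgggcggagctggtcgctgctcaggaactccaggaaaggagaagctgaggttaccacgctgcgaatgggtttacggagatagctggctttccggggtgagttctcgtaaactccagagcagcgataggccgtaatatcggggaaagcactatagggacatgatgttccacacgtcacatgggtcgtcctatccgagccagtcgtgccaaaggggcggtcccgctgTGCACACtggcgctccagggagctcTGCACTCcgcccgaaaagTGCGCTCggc
Mt2, chr8:94172368-94172647, plus strand: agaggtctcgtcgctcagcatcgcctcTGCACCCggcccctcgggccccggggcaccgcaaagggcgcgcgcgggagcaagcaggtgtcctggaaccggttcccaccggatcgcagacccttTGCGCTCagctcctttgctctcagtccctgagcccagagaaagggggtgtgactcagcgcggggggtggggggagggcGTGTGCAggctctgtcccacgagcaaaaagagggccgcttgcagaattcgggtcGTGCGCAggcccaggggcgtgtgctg
Mt3, chr8:94152357-94152636, plus strand: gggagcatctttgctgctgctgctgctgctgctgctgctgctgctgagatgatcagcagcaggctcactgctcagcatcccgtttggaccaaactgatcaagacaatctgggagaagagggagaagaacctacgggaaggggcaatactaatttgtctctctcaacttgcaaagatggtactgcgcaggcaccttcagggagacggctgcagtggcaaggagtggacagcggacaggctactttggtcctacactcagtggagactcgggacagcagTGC
Slc30a1, chr1:191906531-191906810, plus strand: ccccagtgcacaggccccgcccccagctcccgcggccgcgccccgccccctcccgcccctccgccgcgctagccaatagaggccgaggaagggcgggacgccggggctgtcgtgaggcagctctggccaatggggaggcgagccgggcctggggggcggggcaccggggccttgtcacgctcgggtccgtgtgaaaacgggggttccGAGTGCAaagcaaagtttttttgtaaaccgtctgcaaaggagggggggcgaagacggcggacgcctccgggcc
The core occurred 4 times in the Mt2 window and 3 times in that of Mt1, where all 3 copies lie within 30 bases of the annotated start. Whether transcription begins at the annotated starts in these cells was not tested, and copies outside the windows were not counted. In windows that run on to 50 bases after the start, Slc30a1 had 2 copies, of which 1 is printed, and Mt3 had 1, which begins at base 28 and runs past the printed end. Of 32851 RefSeq promoters of that length, 25.7% held at least 1 copy, 1.97% at least 3 and 0.517% at least 4. Slc30a4 had 3 copies, Slc30a2 had 2 and Slc39a5 had 1 in one of its 2 windows. In all, 7 of the 9 genes matched the promoter table, and Slc39a4 and Slc39a14 were not in it. These matches describe letters in a window and not bound sites.

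The slc7a5 fl/fl libraries held 3633 and 3217 cells with medians of 22242 and 32549 UMIs per cell (a UMI is a random tag that lets each captured transcript be counted separately), and the slc7a5 IEC-KO libraries held 10004 and 9644 cells with medians of 6699.5 and 9717.5. Pairs of libraries had 14 to 132 cell barcodes in common. Slc7a5 itself was counted 140 and 128 times under the label slc7a5 fl/fl, and 350 and 615 times under the label slc7a5 IEC-KO (log2 fold change 1.11, SE 0.13, adjusted p = 1.05e-07 by edgeR's quasi-likelihood test). The 3′ tags lie outside the deleted exon and so check nothing, and directions below are those of the labels. Xist UMIs, rounded to 4 significant digits, numbered 8212 and 8830 against 31940 and 50500. Those of Y-linked genes numbered 1533 and 1529 against 838 and 1154. Their balance, and perhaps the mix of sexes, thus differed between the genotypes. These sums were not scaled for depth or cell mix, and the study describes its mice as sex- and age-matched littermates. The part of depth and sex in the results was not tested, except that depth was equalised where stated.

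Paneth cells were taken as cells in which alpha-defensin genes (22 by GENCODE M21 names) made up at least 30% of UMIs. They numbered 2102 and 2007 in the slc7a5 fl/fl libraries and 2830 and 3122 in the slc7a5 IEC-KO libraries. In the latter this class is a range rather than a separate type, since 908 and 813 cells had 20% to 30% (82 and 83 in slc7a5 fl/fl) and 460 and 435 had 30% to 35% (46 and 38 in slc7a5 fl/fl). The Paneth label was borne out by its markers in both genotypes: lysozyme (Lyz1) reached 81860 and 79440 UMIs per 1000000 UMIs outside the defensin genes in slc7a5 fl/fl Paneth cells and 34800 and 27730 in slc7a5 IEC-KO, against 3584 to 8774 in goblet-like cells. Cells under 20% were clustered within each genotype, without the 9 genes, and named from fixed markers as goblet-like (333, 238, 2055 and 1769 cells, in the order of the libraries above), TA- and stem-like (530, 436, 1070 and 1008) and enterocyte-like (252, 199, 592 and 608). Ptprc (CD45) stayed at or under 0.534 on the same scale in these 4 classes. Levels below are UMIs per 1000000 UMIs outside the defensin genes, while fold changes come from edgeR fits to the counts summed per library and class, scaled by TMM. In Paneth cells the levels put slc7a5 IEC-KO higher relative to slc7a5 fl/fl than the TMM fits do: for Mt1 the log2 ratio of mean levels was 2.66 against a fitted 2.26. Scaling by library size alone, without TMM, moved the median log2 difference of all genes in Paneth cells to 0.70 and put all 9 members past the threshold, 8 of them higher and Slc39a5 lower. Most genes were called under that scaling, 9889 of the 12696 tested.

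Mt1 was the member that differed most between the genotypes, and it was higher in the slc7a5 IEC-KO libraries in each of the 4 classes tested. In Paneth cells its level was 148 and 135 in the slc7a5 fl/fl libraries and 865 and 928 in the slc7a5 IEC-KO libraries. In goblet-like cells it was 156 and 125 against 857 and 879. In TA- and stem-like cells it was 386 and 389 against 1191 and 1175. All slc7a5 IEC-KO libraries lay above all slc7a5 fl/fl libraries in each class, on this scale and on the TMM scale of the fits. On the TMM scale the genotypes failed to overlap for many other genes too. The shares of all genes tested were 71%, 55.5%, 46.9% and 47.8% in Paneth, goblet-like, TA- and stem-like and enterocyte-like cells. These shares were not counted on the scale of the levels. In enterocyte-like cells, at 278 and 293 against 1699 and 1554, slc7a5 IEC-KO reached the highest level of any class and genotype. The fitted rise of Mt1 was 4.78-fold in Paneth cells (log2 2.26, SE 0.08, edgeR adjusted p = 1.07e-12), 5.89-fold in goblet-like cells (log2 2.56, SE 0.09), 3.17-fold in TA- and stem-like cells (log2 1.67, SE 0.07) and 5.83-fold in enterocyte-like cells (log2 2.54, SE 0.11). Adjusted p in the last 3 was 8.12e-15, 1.47e-14 and 8.8e-18. With library-size scaling the rise in Paneth cells was 2.95 on the log2 scale.

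Mt2, the other stress-inducible metallothionein of most tissues, was also higher in slc7a5 IEC-KO in the 4 classes, by less. Its level in Paneth cells was 22.0 and 18.1 in slc7a5 fl/fl against 67.0 and 80.1 in slc7a5 IEC-KO. The genotypes did not overlap there, nor did they for 71% of all genes tested on the TMM scale. In TA- and stem-like cells, where Mt2 was highest in both genotypes, it was 96.5 and 79.1 against 114 and 132. In goblet-like cells it was 19.6 and 11.6 against 30.7 and 47.1, and in enterocyte-like cells 20.9 and 22.6 against 33.6 and 44.1. The fitted rise was 2.78-fold in Paneth cells (log2 1.47, SE 0.09, edgeR adjusted p = 9.79e-10), 2.35-fold in goblet-like cells (log2 1.23, SE 0.22, adjusted p = 3.83e-04), 1.86-fold in enterocyte-like cells (log2 0.89, SE 0.17, adjusted p = 9.53e-04) and 1.46-fold in TA- and stem-like cells (log2 0.54, SE 0.09, adjusted p = 3.33e-04). The rise in TA- and stem-like cells was not past the threshold with clusters at resolution 0.5 (log2 0.24, adjusted p = 0.127), nor that in enterocyte-like cells with doublets left out (log2 0.77, adjusted p = 0.120) or with cells thinned to 2000 UMIs (log2 0.79, adjusted p = 0.436), nor that in goblet-like cells with thinned cells (log2 1.00, adjusted p = 0.182). With library-size scaling the rise of Mt2 in Paneth cells was 2.17 on the log2 scale. Mt1 and Mt2 are among the genes that the study itself listed from these cells, so their direction is not independent evidence.

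The number of Mt1 UMIs per Mt2 UMI needs no scaling between libraries. In Paneth cells it was 6.74 and 7.47 in slc7a5 fl/fl and 12.9 and 11.6 in slc7a5 IEC-KO. It was also higher in slc7a5 IEC-KO in goblet-like cells (7.97 and 10.8 against 27.9 and 18.7), in TA- and stem-like cells (4.00 and 4.92 against 10.4 and 8.91) and in enterocyte-like cells (13.3 and 13.0 against 50.5 and 35.3). The genotypes did not overlap in any of these, and the two-sided exact permutation test gave p = 0.333, the smallest that 2 libraries against 2 allow. How reads from stretches shared by these close paralogs were counted was not tested.

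**Figure D1:**
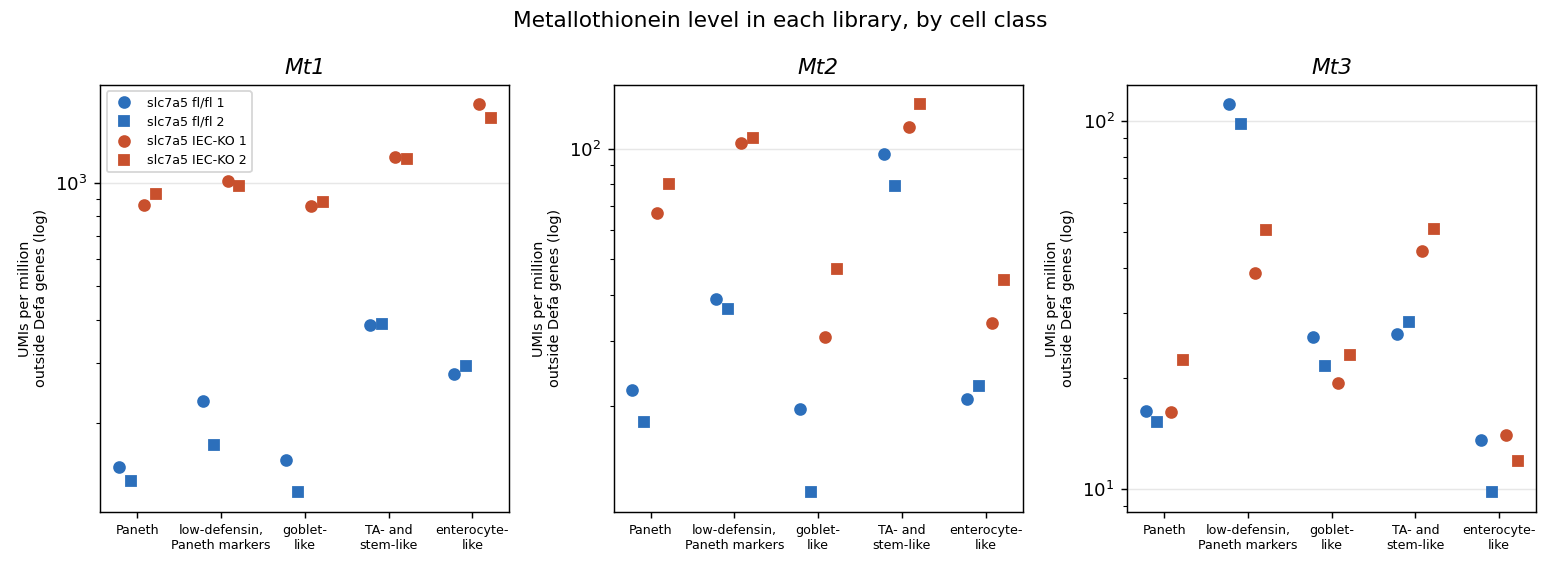
Level of Mt1, Mt2 and Mt3 in UMIs per 1000000 UMIs outside the defensin genes (log axes) in 5 cell classes, with 1 point per library (blue, slc7a5 fl/fl; orange, slc7a5 IEC-KO). Mt1 and Mt2 are higher in slc7a5 IEC-KO in each class shown, and in the low-defensin cells with Paneth markers, whose clusters differ in kind between the genotypes, mean Mt3 is 105 in slc7a5 fl/fl and 44.6 in slc7a5 IEC-KO (not tested). In the unnamed clusters, which are not drawn, mean Mt3 is 56.7 in slc7a5 fl/fl and 52.9 in slc7a5 IEC-KO.

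Mt3, which is best known from brain and does not respond to metals as Mt1 and Mt2 do, followed another pattern. In Paneth cells its level was 16.3 and 15.2 in slc7a5 fl/fl and 16.2 and 22.4 in slc7a5 IEC-KO, and the fitted difference was not past the threshold (log2 -0.09, SE 0.10, edgeR adjusted p = 0.488). Without the second slc7a5 IEC-KO library it was called lower (log2 -0.32, adjusted p = 0.00816), and with library-size scaling it was called higher (log2 0.60, adjusted p = 1.96e-05). Nor was it past the threshold in enterocyte-like cells (log2 0.15, SE 0.24) or goblet-like cells (log2 -0.22, SE 0.15, adjusted p = 0.379), but with clusters at resolution 0.5 it was called lower in goblet-like cells (log2 -1.14, adjusted p = 1.22e-06). At that resolution the goblet-like class held 653, 471, 2143 and 1859 cells. In slc7a5 fl/fl it then took in a cluster led by Retnlb, Reg4 and Ptpro (269 cells). At resolution 1 the cluster led by these genes was named for Paneth markers and had Mt3 at 111 and 98.0. The part of this regrouping in the call was not tested. In TA- and stem-like cells Mt3 was at 26.4 and 28.4 against 44.4 and 50.9, a rise of 1.82-fold (log2 0.86, SE 0.11, edgeR adjusted p = 5.17e-06), which was lost with cells thinned to 2000 UMIs (log2 0.61, adjusted p = 0.172).

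The clusters that made up the TA- and stem-like class, 5 in slc7a5 fl/fl and 3 in slc7a5 IEC-KO, differed widely in Mt3. In slc7a5 fl/fl it was at 5.66 and 2.90 in the cluster led by Amica1, Ifitm3 and Sox4, and in slc7a5 IEC-KO at 8.30 and 8.68 in the cluster led by Amica1, Ifitm3 and Cps1. In the cycling clusters led by Ube2c it was at 39.4 and 48.8 in slc7a5 fl/fl and 63.4 and 56.5 in slc7a5 IEC-KO. In those led by the DNA replication genes Tcf19 and Hells it was at 37.0 and 47.1 against 72.4 and 95.8. The other slc7a5 fl/fl clusters, led by Rbp7 and Dmbt1 (150 cells) and by Hells and Cps1 (125 cells), had Mt3 at 3.20 and 2.51 and at 29.6 and 23.5. Slc39a5 differed among these clusters too, at 84.2 and 91.6 in the one led by Rbp7 and at 7.84 to 59.9 in the other slc7a5 fl/fl clusters, and at 9.76 to 62.2 in those of slc7a5 IEC-KO. Mt2 was at 166 and 132 in the slc7a5 fl/fl cluster led by Ube2c and at 12.6 to 63.8 in the others of that genotype. In slc7a5 IEC-KO it was at 188 and 198 in the cluster led by Ube2c and at 57.8 to 129 in the others. The share of these clusters in the class differed between the genotypes, with 55 cells led by Tcf19 and Hells in the slc7a5 fl/fl libraries together and 606 in the slc7a5 IEC-KO libraries. The class was thus made up differently in the genotypes, and the part of that mix in its values of Mt2, Mt3 and Slc39a5 was not tested.

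Among the importers, Slc39a5, a ZIP protein of the basolateral membrane that is prominent in intestine and pancreas, was lower in slc7a5 IEC-KO in Paneth and goblet-like cells. In Paneth cells its level was 24.9 and 24.5 in slc7a5 fl/fl and 11.6 and 16.6 in slc7a5 IEC-KO, and in goblet-like cells 19.9 and 19.6 against 13.6 and 13.3. The genotypes did not overlap in either class, nor did they for 71% and 55.5% of all genes tested on the TMM scale. It fell by 1.19 on the log2 scale in Paneth cells (SE 0.10, edgeR adjusted p = 7.13e-08), or 2.28-fold, and by 0.61 in goblet-like cells (SE 0.16, adjusted p = 0.0114). With library-size scaling the difference in Paneth cells was -0.49 (adjusted p = 2.3e-04). The call in goblet-like cells was lost without either slc7a5 fl/fl library (adjusted p = 0.125 and 0.0699), with DESeq2 (0.190), with clusters at resolution 0.5 (0.0651) and with thinned cells (0.0951). Its highest level was in enterocyte-like cells, at 116 and 117 against 92.7 and 85.9, where the fitted difference was -0.35 (SE 0.12, adjusted p = 0.0797), and it was called lower without slc7a5 IEC-KO replicate 1 (log2 -0.42, adjusted p = 0.0115). In TA- and stem-like cells it was at 33.1 and 39.6 against 28.4 and 30.4 (log2 -0.24, SE 0.11, adjusted p = 0.261).

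Enterocyte transcripts moved in the same direction within the Paneth cells. The 18 enterocyte markers made up 0.361% and 0.364% of the UMIs outside defensin genes in slc7a5 fl/fl Paneth cells and 0.169% and 0.210% in slc7a5 IEC-KO, and all 18 were called lower there. Without the 10% of Paneth cells of each library with the highest share of other classes' markers, the difference in Slc39a5 was as large (log2 -1.22, edgeR adjusted p = 2.88e-08). That share pooled 95 markers, and goblet markers alone took 9.70% to 11.8% of UMIs outside defensin genes in Paneth cells. It was thus set mostly by goblet markers, so leaving out these cells cannot show the part of enterocyte transcripts. That part was not tested. Within each library, UMIs of Slc39a5 can be set against those of Slc39a4 without scaling: the ratio in Paneth cells was 1.20 and 1.22 in slc7a5 fl/fl and 0.442 and 0.605 in slc7a5 IEC-KO (two-sided exact permutation p = 0.333, the smallest possible).

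Slc39a4, the luminal importer whose loss causes the zinc deficiency acrodermatitis enteropathica in people, was not called in any class. In Paneth cells it was at 20.7 and 20.1 in slc7a5 fl/fl against 26.3 and 27.4 in slc7a5 IEC-KO, with a fitted log2 difference of -0.01 (SE 0.07, edgeR adjusted p = 0.928). In enterocyte-like cells, where it was highest, it was at 62.0 and 53.2 against 54.0 and 55.4 (log2 -0.05, SE 0.14). Slc39a14, which carries manganese and iron as well as zinc, was at 11.7 and 11.9 against 14.3 and 14.4 in Paneth cells (log2 -0.12, SE 0.08, adjusted p = 0.260), its lowest class in both genotypes. In goblet-like cells it was at 25.5 and 19.6 against 18.5 and 18.4 (log2 -0.37, SE 0.15, adjusted p = 0.114). The directions of Slc39a4 and Slc39a14 in Paneth cells turned with library-size scaling, which called both higher.

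Slc30a2 (ZnT2), which loads zinc into the granules of secretory cells, was the member most marked in Paneth cells on the scale outside defensin genes. Its level there was 16.1 and 14.6 in slc7a5 fl/fl and 20.6 and 19.5 in slc7a5 IEC-KO, above every named class of cells under 20% defensin in the same genotype: 9.76 to 13.2 in enterocyte-like cells, 3.17 to 5.20 in TA- and stem-like cells and 2.36 to 3.26 in goblet-like cells. The fitted genotype difference in Paneth cells was -0.03 (SE 0.09, edgeR adjusted p = 0.830), but with library-size scaling it was called higher in slc7a5 IEC-KO (log2 0.67, adjusted p = 8.59e-07). With TMM no class showed a call for Slc30a2, and in goblet-like cells it rested on 9, 8, 26 and 43 UMIs.

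Slc30a1 was the scarcest member, with 94, 129, 82 and 178 UMIs in the Paneth cells of the 4 libraries. Its level was 2.24 and 3.00 in slc7a5 fl/fl against 3.86 and 5.25 in slc7a5 IEC-KO, so the genotypes did not overlap on this scale. On the TMM scale, where 71% of all genes tested did not overlap, Slc30a1 was at 1.21 and 1.63 against 1.63 and 2.09. The fitted difference missed the threshold (log2 0.42, SE 0.18, edgeR adjusted p = 0.0685), and it passed in 7 of 15 alternatives, such as Paneth limits of 40% (log2 0.51, adjusted p = 0.0243). In enterocyte-like cells, its highest class, it was at 13.6 and 14.0 against 7.94 and 13.0 (log2 -0.32, SE 0.25). Slc30a4 (ZnT4), an exporter of intracellular vesicles, was at 7.04 and 8.00 against 9.84 and 10.5 in Paneth cells (log2 0.03, SE 0.10, adjusted p = 0.835), and it was called higher with library-size scaling (log2 0.73). In enterocyte-like cells, again its highest class, Slc30a4 was at 23.0 and 20.9 against 17.2 and 15.6 (log2 -0.40, SE 0.19, adjusted p = 0.265).

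**Figure D2:**
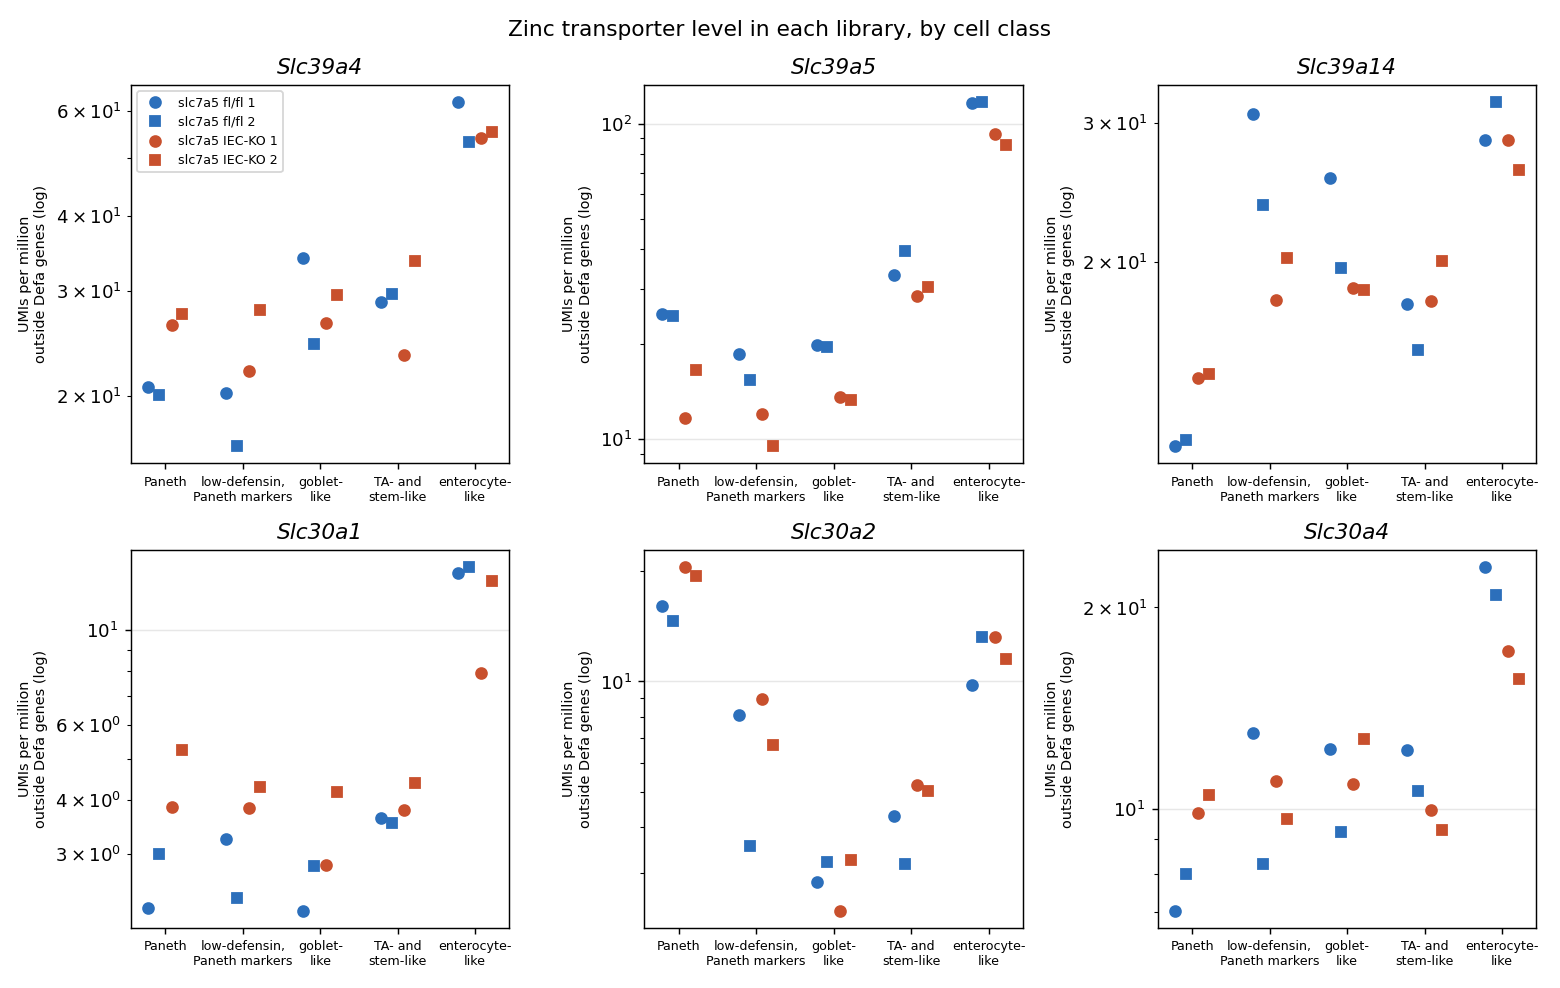
Level of the 6 transporters in UMIs per 1000000 UMIs outside the defensin genes (log axes) in 5 cell classes, with 1 point per library (blue, slc7a5 fl/fl; orange, slc7a5 IEC-KO). On this scale Slc39a4, Slc39a5, Slc30a1 and Slc30a4 peak in enterocyte-like cells and Slc30a2 in Paneth cells. Per 1000000 of all UMIs, Slc30a2 is higher in enterocyte-like than in Paneth cells. Slc39a5 is lower in slc7a5 IEC-KO in each class shown.

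Set against all genes, these counts read as follows. In Paneth cells 3 of the 9 members were called (Mt1 and Mt2 higher, Slc39a5 lower), where 42.1% of the 12696 genes tested were called, 21.2% higher and 21% lower, so the share of members called is below that of all genes. In goblet-like cells the same 3 were called in the same directions, against a background of 13.5% of 10056 genes (7.3% higher and 6.24% lower). In TA- and stem-like cells Mt1, Mt2 and Mt3 were called higher, against 4.86% of 10602 genes (3.07% higher and 1.79% lower), and in enterocyte-like cells Mt1 and Mt2, against 5.89% of 9254 genes (3.86% higher and 2.03% lower). All 9 members passed the filter on low counts in each class. The median log2 difference of the 9 was -0.01 in Paneth cells, -0.13 in goblet-like, 0.25 in TA- and stem-like and -0.05 in enterocyte-like cells, while the median of all genes was at or near 0 in each.

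**Figure D3:**
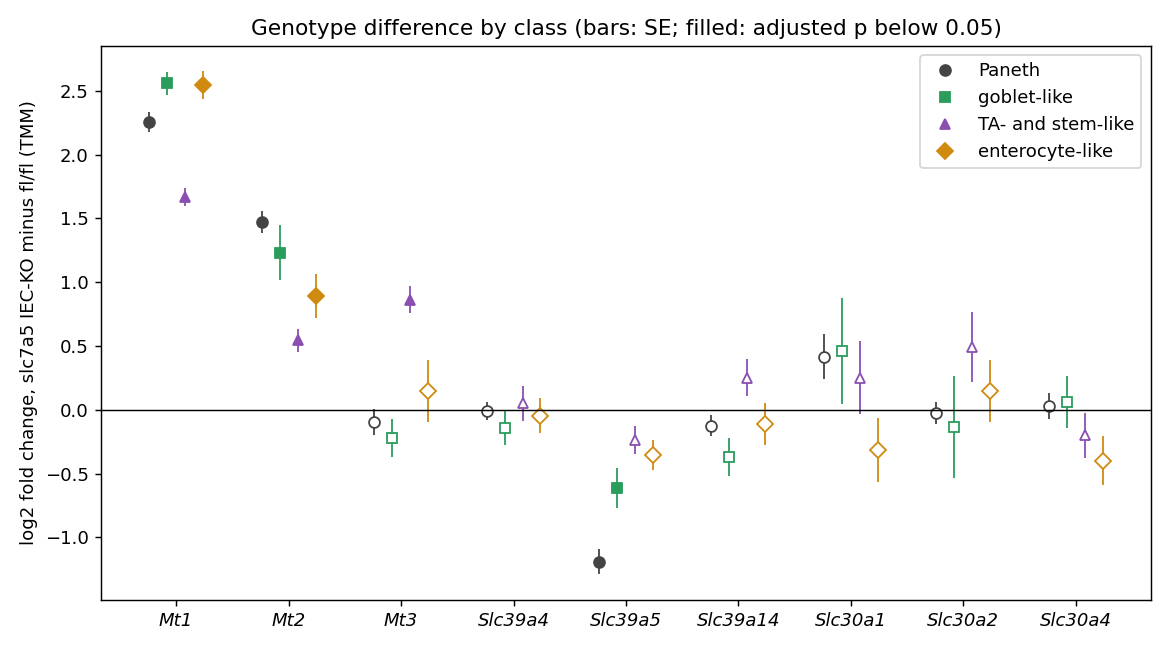
Fitted log2 fold change, slc7a5 IEC-KO minus slc7a5 fl/fl, of the 9 members in 4 cell classes (2 libraries per genotype; bars are standard errors, and filled symbols have an edgeR adjusted p below 0.05). Mt1 and Mt2 are above 0 in all 4 classes, from 0.54 to 2.56, and Slc39a5 is below 0 in all 4, from -1.19 to -0.24.

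The differences in Paneth and in goblet-like cells were compared in 1 model with library as a block. Mt1 rose by 0.33 less in Paneth than in goblet-like cells on the log2 scale (SE 0.08, edgeR adjusted p = 0.00256). Slc39a5 was lowered by a further 0.60 in Paneth cells (difference of log2 fold changes -0.60, SE 0.17, adjusted p = 0.00858). These are 2 of the 9 members, where 10.1% of 11929 genes were called. On the scale of the levels, Mt1 did not rise less in Paneth cells: the log2 ratio of means was 2.66 there and 2.63 in goblet-like cells. For Slc39a5 the log2 ratio of means was -0.81 in Paneth and -0.55 in goblet-like cells, a smaller gap than in the fit. For Mt1 the direction turned with library-size scaling (log2 0.28, adjusted p = 0.00443), and the call was lost with clusters at resolution 0.5 (log2 -0.15), with thinned cells (-0.16) or without slc7a5 fl/fl replicate 2 (-0.25, adjusted p = 0.240). For Slc39a5 the difference was 0.0095 with library-size scaling, and the call was lost without slc7a5 fl/fl replicate 1 (adjusted p = 0.115), slc7a5 fl/fl replicate 2 (0.0664) or slc7a5 IEC-KO replicate 1 (0.177), as well as with DESeq2 (0.171), with the 50% limit (0.221) and with thinned cells (0.654). For Mt2 the difference was 0.20 (SE 0.17, adjusted p = 0.579) and for Mt3 0.09 (SE 0.15, adjusted p = 0.809), but both were called with clusters at resolution 0.5 (0.78 and 1.04, adjusted p = 4.12e-10 and 1.98e-18) and with library-size scaling (0.81 and 0.71, adjusted p = 4.91e-05 and 9.18e-05). At resolution 0.5 the goblet-like class of slc7a5 fl/fl was made up differently, as given above for Mt3.

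Shares of cells with a UMI were compared after thinning every cell to 3500 UMIs, since the libraries differed in depth and every cell had at least 3843. At this depth Mt1 was found in 21.6% and 18.3% of slc7a5 fl/fl Paneth cells and in 78.8% and 80.1% of slc7a5 IEC-KO Paneth cells. The means were 20.0% ± 2.34 (SD, n = 2) and 79.5% ± 0.949 (SD, n = 2), a difference of 59.5 percentage points (two-sided exact permutation p = 0.333, the smallest possible). Before thinning the shares were 88.1% and 89.5% against 98.8% and 99.6%, at medians of 45862 and 52128 against 12548.5 and 18370 UMIs per cell. In Paneth cells with at least 50% defensin UMIs the thinned difference was 52.7 points. Mt2 was found in 3.66% and 2.19% against 10.7% and 13.5% of thinned Paneth cells. In enterocyte-like cells the thinned share of Mt1 rose from 53.6% and 51.8% to 97.8% and 97.9%, while that of Mt2 was 6.75% and 7.04% against 6.42% and 13.0%, so the genotypes overlapped. The transporters were sparse at this depth, at 0.24% to 5.30% of Paneth cells, and Slc30a2 was in 2.85% and 2.29% against 3.71% and 3.24%. In enterocyte-like cells Slc30a2 was in 1.98% and 3.02% against 3.55% and 4.44%.

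**Figure D4:**
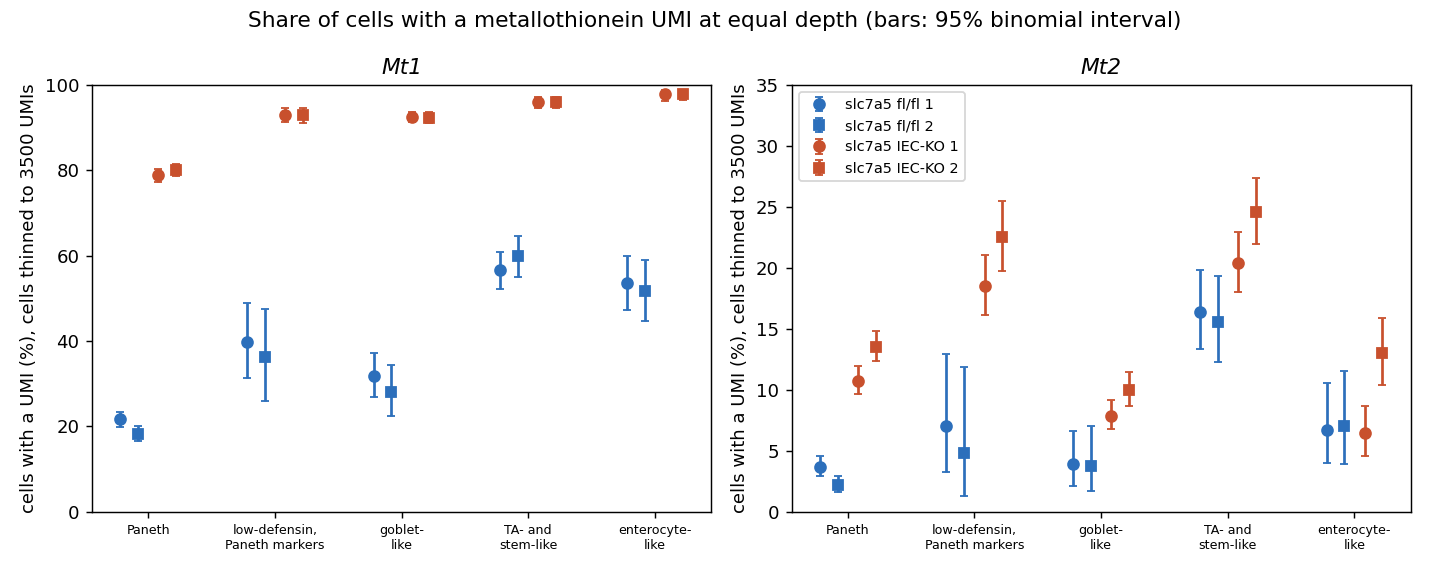
Percent of cells with at least 1 UMI of Mt1 (left) or Mt2 (right) after thinning each cell to 3500 UMIs, in 5 cell classes, with 1 point per library (blue, slc7a5 fl/fl; orange, slc7a5 IEC-KO) and exact 95% binomial intervals that cover counting error only. Mt1 goes from 21.6% and 18.3% to 78.8% and 80.1% in Paneth cells.

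No class here lacks Mt1, so the amount of free RNA could not be read from these cells. Ratios within a library were used to compare the other classes with RNA from Paneth cells alone. Defensin genes took 4.08% to 7.87% of UMIs in goblet-like, TA- and stem-like and enterocyte-like cells. RNA from 1 source keeps its genes in 1 ratio, but free RNA can come from every class. The ratios therefore cannot show how much of a member's RNA in any class was free. For Mt1 the ratio was 0.116 and 0.0949 Mt1 UMIs per 1000 defensin UMIs in slc7a5 fl/fl Paneth cells against 1.47 to 6.05 in the other 3 classes, and 0.974 and 0.983 in slc7a5 IEC-KO Paneth cells against 16.5 to 33.4. For Slc30a2 the ratio was 0.0126 and 0.0103 in slc7a5 fl/fl Paneth cells against 0.0364 and 0.0375 in goblet-like and 0.155 and 0.185 in enterocyte-like cells.

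Across the range of defensin shares, Mt1 separated the genotypes throughout. In cells with 20% to 30% defensin UMIs, just outside the Paneth limit, it was at 136 and 206 in slc7a5 fl/fl and 958 and 1022 in slc7a5 IEC-KO, and in cells with 30% to 40%, just inside, at 150 and 162 against 940 and 1006. At 60% to 70% it was at 169 and 138 against 805 and 870. Mt2 in slc7a5 IEC-KO fell from 87.7 and 100.2 at 20% to 30% to 44.3 and 46.0 at 60% to 70%, where slc7a5 fl/fl was at 24.4 and 18.2. Mt3 in slc7a5 fl/fl was highest at 10% to 20%, at 75.7 and 66.9, and at 50% to 60% it was at 14.9 and 14.3. Slc30a2 went the other way in slc7a5 IEC-KO, from 4.69 and 4.88 under 5% to 25.6 and 22.1 at 60% to 70%. These bins describe cells of the same 4 libraries and were not tested.

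**Figure D5:**
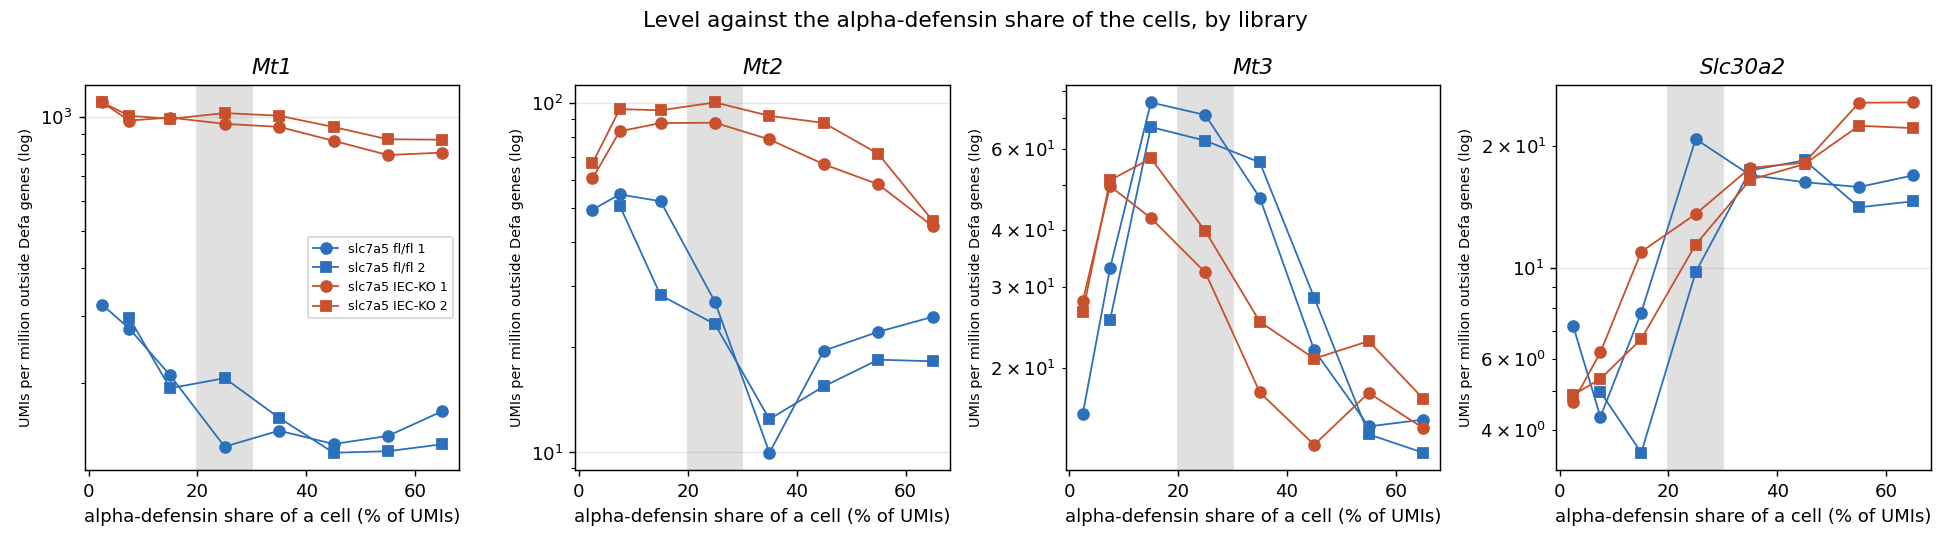
Level of Mt1, Mt2, Mt3 and Slc30a2 in UMIs per 1000000 UMIs outside the defensin genes (log axes) against the defensin share of the cells, in bins with at least 20 cells, by library (blue, slc7a5 fl/fl; orange, slc7a5 IEC-KO); the grey band holds cells between the limits for Paneth and other cells. Mt1 lies at 793 or more in every slc7a5 IEC-KO bin and at 321 or less in every slc7a5 fl/fl bin.

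The trypsinogen gene Try5 was found in 26.6% and 33.8% of slc7a5 IEC-KO Paneth cells before thinning and in 0.143% and 0.0997% of those of slc7a5 fl/fl. Mt1 was similar with and without a Try5 UMI: in slc7a5 IEC-KO Paneth cells with one it was at 880 and 932, and in those without at 858 and 926. Mt2 was at 67.1 and 82.1 with a Try5 UMI and at 66.9 and 78.9 without. Slc39a5 was at 10.3 and 16.1 with a Try5 UMI against 12.2 and 16.9 without, all below the 24.9 and 24.5 of slc7a5 fl/fl Paneth cells without one. These are values within 2 libraries and were not tested. The slc7a5 IEC-KO Paneth cells with a Try5 UMI were also deeper, at medians of 13979 and 21738 UMIs against 11972 and 16810. Before thinning, Try5 was found in 5.94% to 10.5% of slc7a5 IEC-KO goblet-like, TA- and stem-like and enterocyte-like cells. The split is thus by detection, and which cells make trypsinogen was not tested.

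Cells under 20% defensin whose clusters carried Paneth markers (128, 83, 995 and 849 cells) held the highest Mt3 of slc7a5 fl/fl. Its level was 111 and 98.0 there, against 9.79 to 28.8 in the other named classes of that genotype, and 38.7 and 50.6 in slc7a5 IEC-KO. The slc7a5 fl/fl cluster, led by Retnlb, Reg4 and Ptpro, met 3 Paneth and 6 goblet markers. Of the 2 slc7a5 IEC-KO clusters, that led by Rnase1 and Retnlb had Mt3 at 51.4 and 61.8 and that led by Nup133 and Lgmn at 8.57 and 8.84, so the clusters pooled here differ in kind. In the latter Mt2 was at 172 and 167, near the 188 and 198 of the cycling slc7a5 IEC-KO cluster led by Ube2c. The unnamed clusters also held Mt3, at 61.8 and 51.6 in slc7a5 fl/fl and 53.6 and 52.3 in slc7a5 IEC-KO. Among those of slc7a5 IEC-KO, the cluster led by Ccl9 and Vgll4 (1363 cells) was at 73.3 and 78.0, above the low-defensin cells. The one led by Plet1 and Tac1 was at 24.35 and 26.85. Mt1 was higher in slc7a5 IEC-KO also in these low-defensin cells (232 and 172 against 1013 and 983), in tuft and enteroendocrine cells (176 and 334 against 1012 and 932) and in the unnamed clusters (175 and 217 against 940 and 958). Mt2 was higher too in the low-defensin cells and the unnamed clusters. In tuft and enteroendocrine cells the genotypes overlapped for Mt2, at 37.4 and 57.1 against 49.2 and 36.6, on 13, 26, 63 and 49 UMIs. None of these was tested. Among slc7a5 IEC-KO cells the highest Mt1 was in the enterocyte-like cluster led by Reg1 and Fabp1, at 2032 and 2010.

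In the wider ZIP and ZnT families, 5 ZIP and 2 ZnT genes beyond the members were called in Paneth cells. Of the 4 metallothionein genes, Mt4 (chromosome 8, 94137197 to 94139031) had too few counts to be tested in any class. Of 14 ZIP genes, 13 were tested in Paneth cells, with 3 called higher (Slc39a6, Slc39a7 and Slc39a8) and 3 lower (Slc39a5, Slc39a9 and Slc39a10), and a median log2 difference of -0.14. These are 6 of 13, near the 42.1% called of all genes. Slc39a8, an importer of zinc and manganese at the cell surface, rose from 6.09 and 6.79 to 13.0 and 12.2 TMM-scaled counts per 1000000 (CPM) in Paneth cells (log2 0.96, SE 0.08). Slc39a6 rose (log2 0.97, SE 0.15) and Slc39a10 fell by 0.63 (SE 0.11) on the log2 scale, with edgeR adjusted p of 8.54e-05 and 1.82e-04. The falls of Slc39a9 (log2 -0.24, SE 0.08) and Slc39a10 are smaller than the shift of the median of all genes under library-size scaling, given above. That scaling was not read for these genes. In goblet-like cells Slc39a1 and Slc39a5 were called lower among 12 tested, in TA- and stem-like cells Slc39a7 higher among 12, and in enterocyte-like cells Slc39a8 higher among 9, where 13.5%, 4.86% and 5.89% of all genes were called in these 3 classes. Slc39a7, which releases zinc from the endoplasmic reticulum, is, like Mt1 and Mt2, in the study's own list from these cells.

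Of 10 ZnT genes, 8 were tested in Paneth cells, and the 2 called, Slc30a7 and Slc30a10, were both lower (median log2 difference -0.04), against 21% of all genes called lower. Slc30a10, a manganese exporter, fell by 1.30 (SE 0.32, edgeR adjusted p = 0.00360) from 0.578 and 0.645 to 0.139 and 0.317 TMM-scaled CPM. Slc30a7, of the Golgi, fell by 0.20 (SE 0.08, adjusted p = 0.0390).

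Genes of related metal biology moved in both directions in Paneth cells, where 21.2% of all genes were called higher and 21% lower. Of 5 further genes of the metal response tested, 3 were called higher: Hif1a, a hypoxia factor (log2 1.24, SE 0.07), Ndrg1, which it induces (log2 0.97, SE 0.07), and Gclc, which starts glutathione synthesis (log2 0.37, SE 0.08). In copper handling 3 of 12 were higher, among them Mt1 and Mt2, and 5 lower, led by the copper pump Atp7b (log2 -1.78, SE 0.31). Of 11 iron genes, the haem oxygenase gene Hmox1 was higher (log2 2.39, SE 0.26) and 6 were lower, among them the exporter ferroportin, Slc40a1 (log2 -1.09, SE 0.23). Targets of the oxidative stress factor NRF2 split evenly, with 4 of 10 higher, among them the cystine carrier Slc7a11 (log2 2.10, SE 0.14), and 4 lower, among them Nqo1 (log2 -1.07, SE 0.17). Of 7 glucocorticoid-induced genes 3 were higher and 2 lower, led by Sgk1 (log2 -2.08, SE 0.22). A list of zinc-dependent enzymes and their relatives had 8 genes tested. Mmp7, the protease that activates alpha-defensins, and the carbonic anhydrase-related gene Car8 (log2 1.02, SE 0.07) were higher. In the same list 5 were lower, among them the brush border enzyme Alpi (log2 -1.17, SE 0.12). The median log2 differences of these 6 lists were 0.37, -0.11, -0.34, -0.08, 0.10 and -0.74, beside a median of -0.00242 over all genes tested in Paneth cells.

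In the other 3 classes, where 13.5%, 4.86% and 5.89% of all genes were called, these lists were called as follows. Hif1a was called higher in all 3, and Ndrg1 in goblet-like and enterocyte-like cells. Slc7a11 was called higher in all 3, and Hmox1 in goblet-like cells. Of 12 genes of stress during dissociation, 6 were called higher and 2 lower in Paneth cells (21.2% and 21% of all genes), where the list took 0.0288% and 0.0283% of UMIs outside defensin genes in slc7a5 fl/fl and 0.0432% and 0.0454% in slc7a5 IEC-KO. In goblet-like cells 2 of the 12 were called higher, and in TA- and stem-like cells 1 of 11 tested was called higher and 2 lower. In enterocyte-like cells the stress list took 0.0486% and 0.0428% against 0.0402% and 0.0444%, and 1 of 11 genes tested was called, lower. The part of dissociation stress in the metallothionein values was not tested in any class. Goblet markers in Paneth cells (17 tested) were called higher for 7 and lower for 5, and cycling markers lower for 13 of 15, beside the same 21.2% and 21%.

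The genes whose pattern was most like that of Mt1 were sought over 24 sums (6 cell classes in 4 libraries) among 7780 genes with a mean of at least 5 CPM, by Pearson's r of log2(CPM + 1). They were Agpat4 (r = 0.92), an acyltransferase of phospholipid synthesis, Phf10 (0.90), the arginine and lysine carrier Slc7a1 (0.89), Cth (0.89), the enzyme that makes cysteine from cystathionine, and the mitochondrial chaperone Hspa9 (0.89), while Mt2 reached 0.72. Those most like Mt3 were Ccl9 (r = 0.94), Cd177 (0.91), Sypl (0.90), Ppic (0.89) and Scmh1 (0.88). Defensin genes took 47.0% to 58.7% of the Paneth sums, which lowers the other genes there together on this scale. Sums of 1 library also share their depth and free RNA, so these values describe likeness and carry no test.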

How the data were processed

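Crypt cells of 4 libraries were profiled with the 10x Genomics 3′ V2 kit. The deposited values are UMI counts per gene and cell, made by the authors with Cell Ranger against mm10. The submitters' processing notes give Cell Ranger 2.1.1, while the study's methods name a later release. Cells enter as deposited.

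The 9 members and the gene lists were chosen with earlier results of these data known. Paneth cells had at least 30% of UMIs from alpha-defensin genes, and cells under 20% were clustered per genotype (scanpy 1.11.5, Leiden resolution 1, 2000 variable genes) and named where at least 3 fixed markers were met. Doublets were kept, and Scrublet marked 106, 83, 801 and 744 cells, which were left out as an alternative. Counts were summed per library and class and tested in edgeR 4.0.16 (quasi-likelihood, TMM, filterByExpr, Benjamini-Hochberg over all genes, called below 0.05), after tests on simulated data. SE is the log2 fold change over the square root of F. Shares used cells thinned to 3500 UMIs and exact permutation tests over libraries. Intervals cover counting error only. Total UMIs were 113529509 and 119339206 in slc7a5 fl/fl and 87922473 and 127094508 in slc7a5 IEC-KO. Named genes were the 9 members, up to 5 called genes per list with the largest change in Paneth cells (all of them where 5 or fewer were called in a direction), and the 5 genes most like Mt1 and Mt3. Alternatives were DESeq2 1.42.0, other scaling, filters, limits, resolution, thinning, a replicate block and leaving out each library. Defensin genes named by the file's own symbols were an alternative chosen after seeing the data.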

Additional observations from a re-analysis of the deposited data

Results flagged for a closer look

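The genotype difference of 2 members differed between Paneth and goblet-like cells in the test of the difference itself (edgeR, library as a block, 2 libraries per genotype). For Mt1 the log2 difference, Paneth minus goblet-like, was -0.33 (SE 0.08, adjusted p = 0.00256), and for Slc39a5 it was -0.60 (SE 0.17, adjusted p = 0.00858). The level of Mt1 was higher in both slc7a5 IEC-KO libraries than in both slc7a5 fl/fl libraries in either class, and that of Slc39a5 was lower in both. On the scale of the levels the log2 ratio of means for Mt1 was 2.66 in Paneth and 2.63 in goblet-like cells, so that scale does not show a lesser rise. For Slc39a5 it was -0.81 and -0.55. Neither difference between the classes held under every alternative. With library-size scaling Mt1 turned to 0.28 and Slc39a5 to 0.0095, with thinned cells neither was called, and leaving out 1 library lost the call of Mt1 (without slc7a5 fl/fl replicate 2) or of Slc39a5 (without any 1 of slc7a5 fl/fl replicate 1, slc7a5 fl/fl replicate 2 and slc7a5 IEC-KO replicate 1). With DESeq2 and with the 50% limit Slc39a5 was not called, and at resolution 0.5 Mt1 was not.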

How the results depend on the processing

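Of 673 values of the members under alternatives, 630 kept their side of the threshold, 19 were no longer past it, 17 newly passed it and 7 reversed. Among the 630, 54 changed direction without being past the threshold in either fit. Mt1 in the 4 classes, and Mt2 and Slc39a5 in Paneth cells, were called under every alternative run (Mt1 in Paneth cells 2.12 to 2.95, Mt2 1.18 to 2.17, Slc39a5 -1.55 to -0.49). Library-size scaling moved the median log2 difference of all genes to 0.70 in Paneth cells, where 9465 genes were higher and 424 lower (2686 and 2660 with TMM), and to 0.60 in the interaction. There Mt3 (0.60), Slc39a4 (0.69), Slc39a14 (0.58) and Slc30a2 (0.67) reversed in Paneth cells, and Mt1 (0.28), Slc39a5 (0.0095) and Slc30a4 (0.57) in the interaction. In goblet-like cells that scaling gave 1166 higher and 359 lower (734 and 627 with TMM), and in TA- and stem-like cells 283 and 286 (325 and 190 with TMM).

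Counts of genes called were as follows. Paneth cells had 5346, and 3537 with DESeq2, 9889 with library-size scaling (9 members) and 1516 thinned. Goblet-like cells had 1361, and 568 with DESeq2, 398 thinned (1 member) and 654 to 1440 leaving out 1 library. TA- and stem-like cells had 515, and 154 with DESeq2, 797 with the replicate block, 839 at resolution 0.5, 152 thinned and 303 to 1015 leaving out 1 library. Enterocyte-like cells had 545, and 174 with DESeq2, 351 and 324 with defensin limits of 40% and 50%, 145 without doublets (1 member), 274 at resolution 0.5, 83 thinned (1 member) and 232 to 1083 leaving out 1 library. The interaction had 1208, and 423 with DESeq2 (1 member), 738 with the 50% limit (1 member), 5978 with library-size scaling (6 members), 2316 at resolution 0.5, 273 thinned (0 members) and 557 to 1163 leaving out 1 library (0 to 2 members). The difference in the share of Paneth cells with an Mt1 UMI was 59.5 points, and 10.4 without thinning, 52.7 at the 50% limit and 57.8 to 61.1 leaving out 1 library. Except where fewer genes or samples entered, the cause was not tested.

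Replicate numbers were not used as pairs, since the study's methods name no pairing of the libraries. In a later check, deviations of same-numbered libraries correlated at 0.042, 0.067, 0.12 and -0.0068 in Paneth, goblet-like, TA- and stem-like and enterocyte-like cells. With the replicate block Slc30a1 in Paneth cells passed the threshold (log2 0.39, adjusted p = 0.0470) and no other call of a member changed, and in the interaction no replicate block could be added, since library is its block. Scarce members such as Slc30a1 and Slc30a2 are limited by depth.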
